A study of Mus musculus with 12 samples.

Results

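The subject is a set of 9 mouse genes of coagulation and fibrinolysis that macrophages are known to express: F3, F7, F10, F13a1, Serpinb2, Plau, Plaur, Thbd and Procr. They were taken as the probes whose gene name in the scanner files is one of these symbols, which gave 13 probes for 9 of the 27962 gene names on the array. The series asked which transcripts apolipoprotein A-I (apoA-I), the protein that gives HDL particles their structure, changes in macrophages, and whether that response needs MyD88, an adaptor that couples Toll-like receptors to inflammatory gene expression. It holds 12 one-colour Agilent arrays in 4 groups of 3: MyD88-null cells given apoA-I, MyD88-null control cells, C57BL/6 cells given apoA-I and C57BL/6 control cells.

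All cells were peritoneal macrophages of female mice aged 10 weeks, drawn to the peritoneum by thioglycollate broth, an irritant, and collected after 96 h. Cells of every group, controls included, were loaded overnight with cholesterol at 10 µg/ml and then kept with polymyxin B, which binds endotoxin, at 25 µg/ml. ApoA-I was given at 10 µg/ml for 2 h, and control cells received none over the same 2 h. The series describes 3 replicate experiments of 4 samples each, so that replicate 1 of each group came from experiment 1, and so on. The labels do not say how many mice gave each sample, so p-values reflect only how these samples vary, part of which may be technical. The free-text descriptions of C57BL/6 control replicate 2 and of MyD88-null apoA-I replicate 2 name the other treatment than their titles and source names do. Titles and source names were followed, and the main results are also given without these arrays.

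Coagulation outside the vessel starts when tissue factor, the product of F3, binds factor VII and the complex activates factor X, which in turn makes thrombin. Plasminogen activators such as urokinase dissolve the clot again, held in check by serpin inhibitors, and thrombomodulin and the protein C receptor turn thrombin towards an anticoagulant role. Macrophages are known to carry tissue factor and the urokinase receptor on their surface, and in atherosclerotic plaques they are a source of tissue factor.

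Levels are log2 ratios of a probe's processed intensity to its array's 75th percentile, so that 1 unit is a doubling and 0 is the array's upper quartile; a level is comparable between arrays for 1 probe, not between probes. A gene was called where limma's adjusted p, Benjamini-Hochberg over all 16739 genes tested, was under 0.05. All 9 members passed the filter on dim probes, and every one of the 13 probes was well above background and unsaturated on all 12 arrays. All 7 macrophage markers, Adgre1, Csf1r, Cd68, Itgam, Lyz2, Fcgr1 and Mertk, were above background on all 12 arrays. The intensity at the 75th percentile was lowest, at 199.46, for MyD88-null apoA-I replicate 1, an array that also stood apart with 73.6% of probes above background, and highest, at 1408.1, for C57BL/6 control replicate 3; the number of arrays limits the precision. The Myd88 probe read 2.43 to 3.25 in MyD88-null apoA-I cells against 3.41 to 4.30 in C57BL/6 apoA-I cells, and its MyD88-null control values of 1.40 to 2.10 stood against 2.96 to 3.49 in C57BL/6 controls. The labels do not say which part of the gene was deleted, so whether this probe checks the genotype was not settled here.

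The first sequences shown are the places where probes of a member share bases, since those members were measured by paired probes that are not independent. The F3 probes, each 60 bases long, share 20 bases at chr3:121503205-121503224 on the plus strand (mm7 coordinates of the scanner files), and capitals mark the bases that differ between them.
F3 probe used in the fit, last 20 bases: ggacgaacGgaaacCgtaca
F3 other probe, first 20 bases: ggacgaacTgaaacGgtaca
Counted from 1 at the 5′ end of the shared stretch, the differences from the first to the second are G9T and C15G. The Serpinb2 probes share 20 identical bases at chr1:107424897-107424916 on the plus strand.
Serpinb2 both probes: ttggtagattctcctcaccc
F10 is measured by a single probe, at chr8:13029994-13030053 on the plus strand, shown because it carries the call made in both genotypes.
F10 probe: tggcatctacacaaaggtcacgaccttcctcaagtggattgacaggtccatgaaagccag
The exon, intron or UTR position of the probes was not assigned here.

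The question asked first is how the members responded to apoA-I within each genotype. In MyD88-null cells F10 and Plau rose and none fell, so that 2 of 9 members were called, while 1.14% of all genes tested were called and 1.13% were called higher. In C57BL/6 cells F3 and F10 rose and none fell, again 2 of 9 members, against 0.83% of all genes called, 0.812% higher and 0.0179% lower. At an unadjusted p under 0.05 stood 5 members in MyD88-null cells, where 8.66% of genes did, and 6 in C57BL/6 cells, where 7.41% did. The median change of the 9 members was 0.53 in MyD88-null cells, with 0.051 over all genes, and 0.66 in C57BL/6 cells, with -0.0022 over all genes. Same-numbered arrays deviated together. For experiment 3, which had its own scan day and slides, this could not be separated from scan day and slide. A fit with the experiment as a block is therefore given beside each result it changes. With that block 4 of 9 members were called in MyD88-null cells, 3 higher (F10, Plau, Serpinb2) and 1 lower (Thbd), where 3.46% of genes were called higher and 0.609% lower. In C57BL/6 cells the block gave 5 of 9, 4 higher (F3, F10, Serpinb2, Plaur) and 1 lower (Thbd), where 2.37% were called higher and 1.04% lower. Treated and control arrays did not overlap for 5 members in MyD88-null cells, where 11.6% of genes showed this, and for 6 in C57BL/6 cells, where 13.1% did. These are bulk samples, in which a smaller share of cells of a type and less RNA per cell cannot be told apart.

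**Figure D1:**
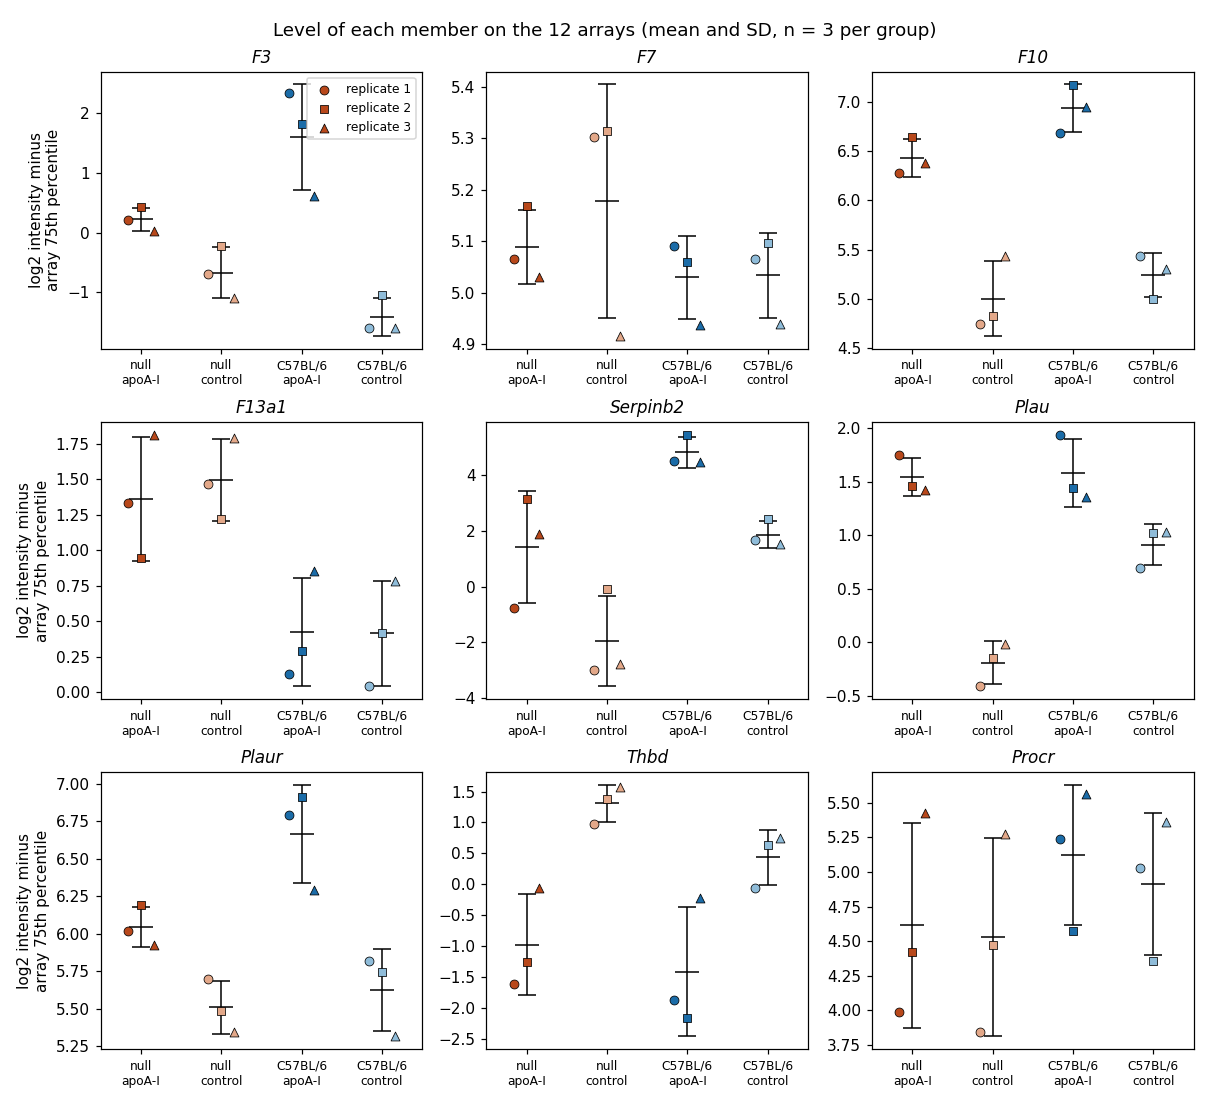
Level of each of the 9 members (vertical axis, log2 intensity relative to the array's upper quartile) on the 12 arrays, by group (horizontal axis); symbols are replicates 1 to 3, and bars are the mean and SD of 3 arrays. The vertical axes differ between panels. F3, F10, Plau and Plaur lie higher with apoA-I in both genotypes, Thbd lies lower, and Serpinb2 spreads from -0.78 to 3.12 in MyD88-null apoA-I cells.

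F3 encodes tissue factor, the cell surface receptor that starts coagulation. Its level was 0.21, 0.42 and 0.032 in MyD88-null apoA-I cells, against -0.68, -0.23 and -1.09 in MyD88-null control cells. C57BL/6 cells had 2.35, 1.82 and 0.62 with apoA-I, against -1.59, -1.04 and -1.60 in controls. Treated and control arrays did not overlap in either genotype, and every C57BL/6 apoA-I array lay above every array of the other 3 groups. F3 rose by 3.00 on the log2 scale in C57BL/6 cells (SE 0.41, 8.02-fold, adjusted p = 0.0062). In MyD88-null cells the difference was 0.89 (SE 0.41, 1.85-fold, adjusted p = 0.589, and 0.127 with the experiment as a block). In the order of group means, C57BL/6 apoA-I cells came first at 1.60 ± 0.89 (SD, n = 3), followed by MyD88-null apoA-I cells at 0.22 ± 0.20, MyD88-null controls at -0.67 ± 0.43 and C57BL/6 controls at -1.41 ± 0.32, and only the ranges of the last 2 overlapped. The response was larger in C57BL/6 cells in each of the 3 experiments, at 0.89, 0.65 and 1.13 in MyD88-null cells against 3.94, 2.86 and 2.22 in C57BL/6 cells. The difference between the responses was -2.11 (95% interval -3.40 to -0.83, unadjusted p = 0.00436), and it did not pass adjustment over all genes (adjusted p = 0.9997, and 0.388 with the experiment as a block). The other F3 probe gave 0.95 (SE 0.41) in MyD88-null cells and 2.72 (SE 0.41, adjusted p = 0.0118 over all probes) in C57BL/6 cells. On slides 1 and 2, which held both C57BL/6 treatments, the difference was 3.94 and 2.86. In MyD88-null cells the treated and control arrays of experiments 1 and 2 lay on different slides, scanned on different days. Slide 3, which set MyD88-null apoA-I replicate 1 beside control replicate 2, gave 0.44, and slide 5, with the pair of experiment 3, gave 1.13. In experiment 3 C57BL/6 control replicate 3 lay on slide 4 and the other arrays on slide 5, scanned on the same day. The genotypes are therefore not evenly matched by slide in any experiment, nor by scan day in experiments 1 and 2. The C57BL/6 call stood in all 12 fits that left out an array, with adjusted p of up to 0.0489, but without both arrays of conflicting description the change was 3.19 with an adjusted p of 0.0545.

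F7 encodes factor VII, the plasma protease that tissue factor binds, and the liver is its main source. It was the steadiest member, with 5.07, 5.17 and 5.03 in MyD88-null apoA-I cells against 5.30, 5.31 and 4.92 in MyD88-null controls. C57BL/6 cells had 5.09, 5.06 and 4.94 with apoA-I against 5.07, 5.10 and 4.94 in controls. The groups overlapped throughout. The difference was -0.089 (95% interval -0.48 to 0.30) in MyD88-null cells and -0.0038 (95% interval -0.39 to 0.39) in C57BL/6 cells, neither of them called. Of 5 hepatocyte markers, Ttr, Serpina1b and Cyp2e1 were above background on 0 of 12 arrays, Alb on 1 and Apoa2 on 2.

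F10 encodes factor X, the protease at which the routes of coagulation meet, and its probe lies 20428 bases from that of F7 on chromosome 8. It had 6.27, 6.64 and 6.37 in MyD88-null apoA-I cells, against 4.74, 4.83 and 5.44 in MyD88-null controls. With apoA-I, C57BL/6 cells reached 6.68, 7.17 and 6.94, against 5.43, 5.00 and 5.30 in controls. All treated arrays lay above all control arrays. F10 rose by 1.43 in MyD88-null cells (SE 0.244, 2.69-fold, adjusted p = 0.0185) and by 1.69 in C57BL/6 cells (SE 0.244, 3.23-fold, adjusted p = 0.00907). With the experiment as a block limma's adjusted p was 0.0114 in MyD88-null cells and 0.0060 in C57BL/6 cells. The fits below that left out arrays were made without the block. The responses differed by -0.26 (95% interval -1.03 to 0.50, adjusted p = 0.9997), so that a response up to about 1.03 log2 units smaller in MyD88-null cells lies within the interval. The MyD88-null call was lost in 4 of 12 fits that left out an array: without MyD88-null apoA-I replicate 2 (adjusted p = 0.0935) or 3 (0.0543), and without MyD88-null control replicate 1 (0.103) or 2 (0.101). The C57BL/6 call was lost in 2 of 12, without C57BL/6 apoA-I replicate 2 (0.0713) or C57BL/6 control replicate 2 (0.0648). Without both arrays of conflicting description the changes were 1.32 (adjusted p = 0.152) in MyD88-null cells and 1.57 (adjusted p = 0.119) in C57BL/6 cells.

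F13a1 encodes the A subunit of factor XIII, the transglutaminase that cross-links fibrin. It had 1.34, 0.94 and 1.81 in MyD88-null apoA-I cells, against 1.47, 1.22 and 1.79 in MyD88-null controls. C57BL/6 cells had 0.13, 0.29 and 0.85 with apoA-I, against 0.041, 0.42 and 0.78 in controls. Treated and control arrays overlapped in both genotypes. The difference with apoA-I was -0.13 (95% interval -0.81 to 0.55) in MyD88-null cells and 0.010 (95% interval -0.67 to 0.69) in C57BL/6 cells.

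Plau encodes urokinase, the plasminogen activator that works on cell surfaces. Its level was 1.75, 1.46 and 1.42 in MyD88-null apoA-I cells, against -0.41, -0.15 and -0.015 in MyD88-null controls. C57BL/6 values were 1.94, 1.44 and 1.35 with apoA-I, against 0.69, 1.02 and 1.03 in controls. The treated groups overlapped each other, whereas MyD88-null controls lay below all other arrays. Plau rose by 1.73 in MyD88-null cells (SE 0.221, 3.33-fold, adjusted p = 0.00283), and the call stood in all 12 fits that left out an array. In C57BL/6 cells the difference was 0.66 (SE 0.221, 1.58-fold, adjusted p = 0.362, and 0.152 with the experiment as a block). In the 3 experiments the responses were 2.16, 1.60 and 1.44 in MyD88-null cells against 1.25, 0.42 and 0.32 in C57BL/6 cells. On slides 3 and 5, which held both MyD88-null treatments, the difference was 1.90 and 1.44. On slides 1 and 2, which held both C57BL/6 treatments, it was 1.25 and 0.42. The difference between the responses was 1.07 (95% interval 0.37 to 1.77, unadjusted p = 0.00643), which did not pass adjustment over all genes (adjusted p = 0.9997, and 0.59 with the experiment as a block). The other Plau probe, whose 60 bases span 367 bases of genome, gave 1.63 (SE 0.328, adjusted p = 0.0468 over all probes) in MyD88-null cells and 0.38 (SE 0.328) in C57BL/6 cells. That probe was dimmer, with intensities of 23.6 to 62.2 in MyD88-null controls, against 255 to 1229 for the probe used in the fit. Without both arrays of conflicting description the MyD88-null change was 1.78 (adjusted p = 0.0387).

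**Figure D2:**
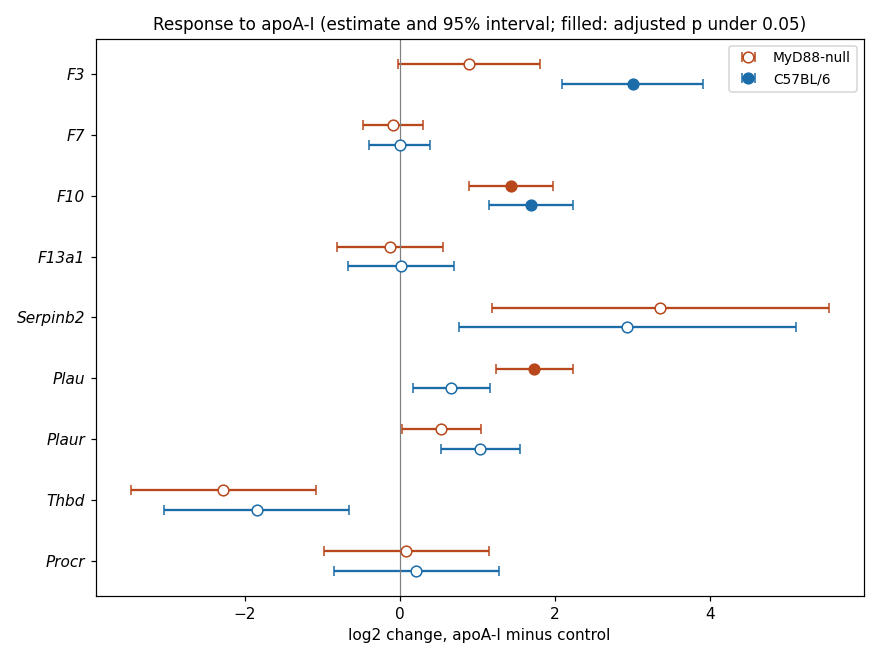
Change with apoA-I (horizontal axis, log2, apoA-I minus control) of the 9 members in MyD88-null and C57BL/6 cells, as limma's estimate with its 95% interval; filled points have an adjusted p under 0.05 without the block. F10 is filled in both genotypes, Plau in MyD88-null cells at 1.73 and F3 in C57BL/6 cells at 3.00, and the widest intervals are those of Serpinb2.

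Plaur encodes the urokinase receptor, which holds urokinase at the cell surface. It had 6.02, 6.19 and 5.93 in MyD88-null apoA-I cells, against 5.70, 5.49 and 5.35 in MyD88-null controls. Its C57BL/6 values were 6.79, 6.91 and 6.29 with apoA-I, against 5.82, 5.75 and 5.32 in controls. Treated arrays lay above control arrays in both genotypes. The difference was 0.53 (SE 0.228, adjusted p = 0.546, and 0.0836 with the experiment as a block) in MyD88-null cells. In C57BL/6 cells it was 1.04 (SE 0.228, 2.05-fold, adjusted p = 0.0921), a difference that passed with the experiment as a block (adjusted p = 0.00852). The within-experiment values were 0.32, 0.70 and 0.58 in MyD88-null cells and 0.97, 1.16 and 0.97 in C57BL/6 cells, and the difference between responses of -0.50 (95% interval -1.22 to 0.21) was not called. The other Plaur probe gave 0.43 (SE 0.434) in MyD88-null cells and 1.08 (SE 0.434) in C57BL/6 cells.

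Serpinb2 encodes plasminogen activator inhibitor 2, a serpin that inhibits urokinase and stays largely inside the cell. Its level was -0.78, 3.12 and 1.88 in MyD88-null apoA-I cells, against -2.98, -0.089 and -2.78 in MyD88-null controls. Among C57BL/6 cells the level was 4.50, 5.42 and 4.44 with apoA-I, against 1.65, 2.40 and 1.53 in controls. Experiment 2 was the highest in each of the 4 groups, and the MyD88-null treated and control arrays overlapped while the C57BL/6 ones did not. Without the block neither difference passed, at 3.36 in MyD88-null cells (SE 0.976, 10.3-fold, adjusted p = 0.229) and 2.93 in C57BL/6 cells (SE 0.976, 7.64-fold, adjusted p = 0.362). With the experiment as a block both passed (adjusted p = 0.0254 in MyD88-null cells and 0.0454 in C57BL/6 cells). Within experiments the response was 2.20, 3.21 and 4.66 in MyD88-null cells and 2.85, 3.03 and 2.92 in C57BL/6 cells. By slide the MyD88-null values went apart, at -0.69 on slide 3, which set apoA-I replicate 1 beside control replicate 2, and 4.66 on slide 5, which held a pair from 1 experiment. Without the block, the MyD88-null difference was not called in 11 of the 12 fits that left out an array (adjusted p of up to 0.539) and ranged from 2.50, without MyD88-null apoA-I replicate 2, to 4.45, without MyD88-null apoA-I replicate 1, the array that stood apart in intensity and the fit in which it was called (adjusted p = 0.043). The other Serpinb2 probe gave 3.47 (SE 1.02) in MyD88-null cells and 2.79 (SE 1.02) in C57BL/6 cells. The summed level of the 8 mesothelial and fibroblast markers was also highest in experiment 2 in each group, in units of the array's 75th percentile. It was 140 against 48.5 and 67.1 in MyD88-null apoA-I cells and 164 against 50.6 and 35.8 in MyD88-null controls. In C57BL/6 cells it was 198 against 67.5 and 152 with apoA-I and 180 against 52.0 and 120 in controls. The sum of 6 markers of resident peritoneal macrophages was likewise highest in experiment 2 in each group. In MyD88-null cells it was 7.82 against 5.97 and 6.42 with apoA-I and 7.93 against 5.85 and 4.88 in controls. C57BL/6 cells had 10.4 against 9.25 and 10.1 with apoA-I and 11.7 against 9.20 and 9.66 in controls. The part of either sum in the result was not tested.

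Thbd encodes thrombomodulin, the receptor with which thrombin activates the anticoagulant protein C. It was the member that lay lower with apoA-I, at -1.61, -1.25 and -0.060 in MyD88-null apoA-I cells against 0.98, 1.38 and 1.57 in MyD88-null controls. Its C57BL/6 values were -1.86, -2.16 and -0.22 with apoA-I against -0.0655, 0.63 and 0.75 in controls. Treated arrays lay below control arrays in both genotypes, with experiment 3 the highest of each group. The difference was -2.28 in MyD88-null cells (SE 0.536, 4.86-fold lower, adjusted p = 0.0984) and -1.85 in C57BL/6 cells (SE 0.536, 3.60-fold lower, adjusted p = 0.258). With the experiment as a block both passed (adjusted p = 0.00768 in MyD88-null cells and 0.0232 in C57BL/6 cells). Of 7 endothelial markers, the cells in which thrombomodulin is best known, Pecam1 was above background on 2 of 12 arrays and Cdh5 on 11, and 3 or 4 of the 7 were above background on every array of a group. Their summed level was 1.42 to 2.10 in MyD88-null apoA-I cells against 1.25 to 2.13 in MyD88-null controls, and 1.07 to 1.20 in C57BL/6 apoA-I cells against 1.17 to 2.00 in C57BL/6 controls; their part in the result was not tested.

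Procr encodes the endothelial protein C receptor, the partner of thrombomodulin in protein C activation. It had 3.99, 4.42 and 5.43 in MyD88-null apoA-I cells, against 3.84, 4.47 and 5.27 in MyD88-null controls. C57BL/6 cells had 5.24, 4.57 and 5.56 with apoA-I, against 5.03, 4.35 and 5.36 in controls. Treated and control arrays overlapped in both genotypes, with experiment 3 the highest in every group. The difference with apoA-I was 0.084 (95% interval -0.98 to 1.15) in MyD88-null cells and 0.21 (95% interval -0.85 to 1.28) in C57BL/6 cells, and it was not called with or without the block.

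**Figure D3:**
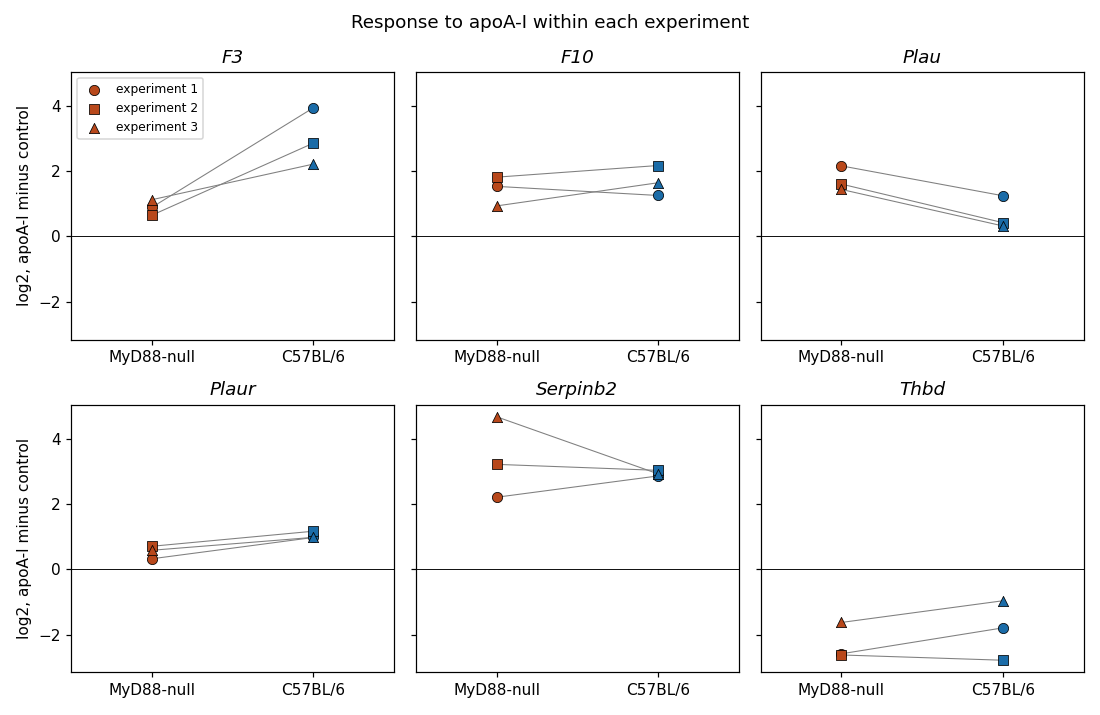
Response to apoA-I (vertical axis, log2, apoA-I minus control of the same experiment) of 6 members in MyD88-null and C57BL/6 cells; symbols are the 3 experiments and lines join the values of 1 experiment. F3 lies higher in C57BL/6 cells and Plau higher in MyD88-null cells in each experiment, and all 6 Thbd values lie below 0. In experiments 1 and 2 the treated and control arrays shared a slide and scan day in C57BL/6 cells but not in MyD88-null cells. In experiment 3 they shared a scan day in both, and a slide in MyD88-null cells only.

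Limits of scaling and labels apply to both responses. Scaling each array by its median in place of its 75th percentile moved the median of all genes in the MyD88-null response to -0.398, against 0.051. Under it F3 stayed called in C57BL/6 cells (2.94, adjusted p = 0.0091), F10 was not called (0.98, adjusted p = 0.624, in MyD88-null cells and 1.63, adjusted p = 0.429, in C57BL/6 cells), and Plau was not called in MyD88-null cells (1.28, adjusted p = 0.557). With the treatment of the arrays in conflict taken from their descriptions, 0 members were called in either response.

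The next question is whether the genotypes differed at the same treatment. Without the block, 0 of 9 members were called in controls, where 0.0956% of all genes were called, and 3 stood at an unadjusted p under 0.05, where 3.51% of genes did. With apoA-I 0 of 9 were called, where 0.0657% of genes were called, and 4 stood at an unadjusted p under 0.05, where 3.92% did. For the difference between the responses 0 of 9 members and 0% of genes were called, and the 2 members at an unadjusted p under 0.05 were F3 and Plau, where 1.17% of genes reached it. With the experiment as a block, 2 members were called in controls, F13a1 higher and Serpinb2 lower in MyD88-null cells, where 0.0657% of genes were called higher and 0.526% lower. With apoA-I the block called 0 members, where 0.227% of genes were called. MyD88-null and C57BL/6 arrays did not overlap for 4 members in controls, where 10.3% of genes showed this, and for 5 with apoA-I, where 5.63% did.

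Serpinb2 had the widest genotype difference of the 9 members, with every MyD88-null array below every C57BL/6 array of the same treatment. The difference was -3.81 in controls (SE 0.976, 14.0-fold lower, adjusted p = 0.472, and 0.0423 with the experiment as a block) and -3.38 with apoA-I (SE 0.976, 10.4-fold lower, adjusted p = 0.941, and 0.103 with the block). Leaving out an array moved the apoA-I difference between -2.29, without MyD88-null apoA-I replicate 1, the array that stood apart in intensity, and -4.24, without MyD88-null apoA-I replicate 2. The control difference of Serpinb2 moved between -3.29, without MyD88-null control replicate 1, and -4.74, without MyD88-null control replicate 2, and neither was called in any of these 12 fits without the block. F13a1 lay higher in MyD88-null cells, by 1.08 in controls (SE 0.307, 2.11-fold, adjusted p = 0.666, and 0.036 with the block) and by 0.94 with apoA-I (SE 0.307, adjusted p = 0.998, and 0.099 with the block). Every MyD88-null array of F13a1 lay above every C57BL/6 array. Plau lay lower in MyD88-null controls by a difference of -1.10 (SE 0.221, adjusted p = 0.165, and 0.0856 with the block), and with apoA-I the difference was -0.034 (95% interval -0.53 to 0.46). F3 differed by 0.74 in controls (95% interval -0.17 to 1.65) and by -1.37 with apoA-I (95% interval -2.28 to -0.46, adjusted p = 0.987, and 0.148 with the block). For Thbd the difference was 0.87 in controls and 0.44 with apoA-I, and for Plaur it was -0.12 in controls and -0.62 with apoA-I, none of them called. The largest of the remaining differences was that of Procr, at -0.51 with apoA-I (95% interval -1.58 to 0.55) and -0.38 in controls. F10 differed by -0.50 with apoA-I (95% interval -1.05 to 0.040), where every MyD88-null array lay below every C57BL/6 array, and by -0.24 in controls. F7 differed by 0.059 with apoA-I and 0.14 in controls. Procr, F10 and F7 were not called here with or without the block.

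Markers of other cells also differed in level between the genotypes, without any of them being called. The summed level of 4 B cell markers was 4.07 to 7.31 in MyD88-null apoA-I cells against 7.71 to 8.51 in C57BL/6 apoA-I cells, and 4.43 to 5.12 in MyD88-null controls against 7.50 to 8.80 in C57BL/6 controls. That of 5 mast cell markers was 2.25 to 3.96 in MyD88-null apoA-I cells against 5.64 to 6.24 in C57BL/6 apoA-I cells, and 2.21 to 4.07 in MyD88-null controls against 4.28 to 5.42 in C57BL/6 controls. For 6 markers of resident peritoneal macrophages, of which Timd4 was above background on 4 of 12 arrays, it was 5.97 to 7.82 in MyD88-null apoA-I cells against 9.25 to 10.4 in C57BL/6 apoA-I cells, and 4.88 to 7.93 in MyD88-null controls against 9.20 to 11.7 in C57BL/6 controls. Within that sum Cxcl13, a chemokine, had the widest difference, at -2.43 with apoA-I and -2.68 in controls, while the other tested markers lay between -0.55 (Vsig4) and 0.25 (Icam2) with apoA-I and between -0.86 (Selp) and 0.39 (Vsig4) in controls. Their part in the genotype differences of Serpinb2, F13a1 and Plau was not tested.

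**Figure D4:**
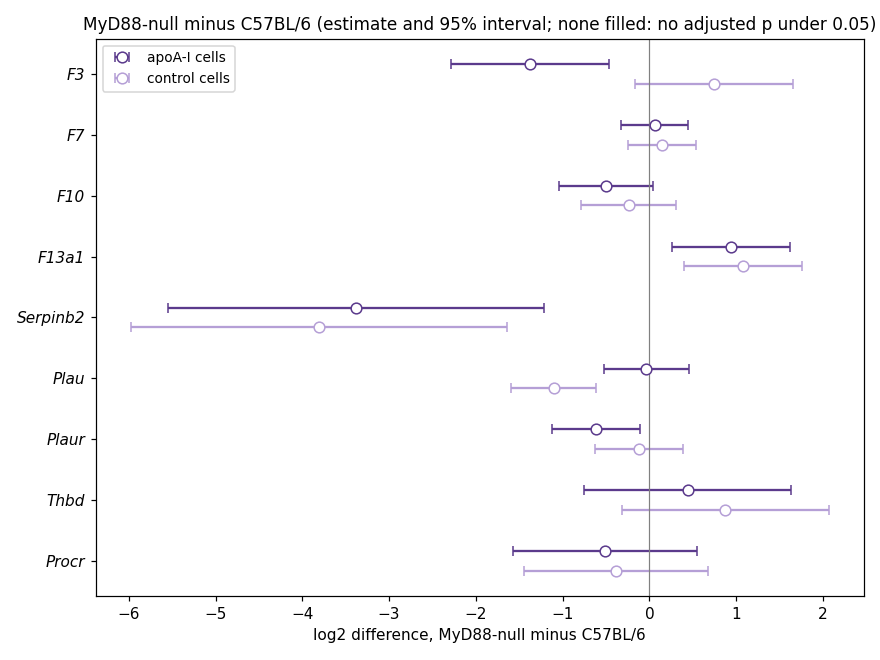
Difference between genotypes (horizontal axis, log2, MyD88-null minus C57BL/6) of the 9 members in apoA-I cells and in control cells, as limma's estimate with its 95% interval; no point is filled because none had an adjusted p under 0.05 without the block. Serpinb2 lies at -3.38 and -3.81 and F13a1 at 0.94 and 1.08.

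The promoter windows of F3, Plaur and Serpinb2 are shown because these members lay higher with apoA-I in every experiment of both genotypes and their windows hold matches; the F10 window held no match to any motif searched. RefSeq windows on GRCm38.p6, from 250 bases before to 50 after the annotated start, were at hand for 7 of the 9 members. Plau and Thbd had no window and were not searched. They were searched on both strands for the AP-1 motif TGANTCA, the TATA box TATAAA, the GC box GGGCGG and the NF-kappaB motif, and capitals mark matches. The F3 window is chr3:121723287-121723586 (plus strand), the Plaur window chr7:24462233-24462532 (plus strand) and the first of 2 Serpinb2 windows chr1:107511173-107511472 (plus strand).
F3 promoter: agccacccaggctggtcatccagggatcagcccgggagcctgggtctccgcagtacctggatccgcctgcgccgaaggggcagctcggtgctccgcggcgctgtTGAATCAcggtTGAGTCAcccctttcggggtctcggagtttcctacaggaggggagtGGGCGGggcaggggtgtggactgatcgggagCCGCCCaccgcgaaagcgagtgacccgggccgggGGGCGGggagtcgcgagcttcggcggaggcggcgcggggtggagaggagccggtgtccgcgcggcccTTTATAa
Plaur promoter: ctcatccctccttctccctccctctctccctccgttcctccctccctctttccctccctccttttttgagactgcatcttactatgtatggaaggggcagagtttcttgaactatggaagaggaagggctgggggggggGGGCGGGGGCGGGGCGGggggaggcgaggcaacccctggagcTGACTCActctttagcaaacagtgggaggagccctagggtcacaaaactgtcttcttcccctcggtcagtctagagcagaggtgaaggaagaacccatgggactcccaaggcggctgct
Serpinb2 promoter: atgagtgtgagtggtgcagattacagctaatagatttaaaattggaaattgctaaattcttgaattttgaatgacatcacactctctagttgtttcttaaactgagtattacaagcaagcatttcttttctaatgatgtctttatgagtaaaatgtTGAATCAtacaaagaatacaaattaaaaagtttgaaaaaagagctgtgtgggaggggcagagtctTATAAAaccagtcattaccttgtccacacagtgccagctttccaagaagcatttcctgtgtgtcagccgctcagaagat
The 7 members had 9 windows. Members are counted by gene below and the share over all genes by window, so the 2 figures do not compare directly. The AP-1 motif was found in the windows of 4 of the 7 members, F3, Plaur, Serpinb2 and Procr, while 7.81% of all 32851 windows hold it. Procr was called in neither response. The F3 window holds 2 such matches, and the others hold 1 each. The TATA box of the F3 window reads on the minus strand and begins at base 44 counted from the annotated start, while that of the first Serpinb2 window begins 29 bases before its start. The TATA box was found in 2 members, F3 and Serpinb2 (13.6% of all windows), the GC box in 2, F3 and Plaur (35.7%), where adjacent matches in Plaur run together, and the NF-kappaB motif in 0 (8.46%). These matches are descriptions of letters in a window, and no binding was measured.

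The rest of the pathway was read from a list of 47 other genes, all of them on the array, of which 29 passed the filter. Without the block 0 of 29 were called in each of the 5 comparisons, with 3 at an unadjusted p under 0.05 in the MyD88-null response (Fgl2 and Plg among them), where 8.66% of all genes did, and 1 in the C57BL/6 response, where 7.41% did. At that unadjusted level stood also 3 in the genotype comparison of controls (Fgl2, Plg and Tfpi), 1 in the difference between responses (Plg) and 0 in the genotype comparison with apoA-I, where 3.51%, 1.17% and 3.92% of all genes did. Plg was above background on 0 of 3 MyD88-null control arrays and 2 of 3 MyD88-null apoA-I arrays, and passed the filter only through the C57BL/6 groups. Each Plg difference named here uses the MyD88-null controls and so is set against values at background. With the experiment as a block 1 of 29 was called in the MyD88-null response, where 4.07% of all genes were called, and 2 in the C57BL/6 response (Plat among them), where 3.41% were, each of them higher, and 0 in the other 3 comparisons. The median change of the 29 was 0.016 in MyD88-null cells, with 0.051 over all genes, and -0.028 in C57BL/6 cells, with -0.0022 over all genes. By role, 9 of 19 procoagulant factors, 7 of 10 anticoagulants, 7 of 7 fibrinolysis activators and receptors, 5 of 7 fibrinolysis inhibitors and 1 of 4 thrombin and protease receptors passed the filter. All 3 fibrinogen chains, Fga, Fgb and Fgg, were below it.

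Plat, the tissue plasminogen activator, had 0.097, 1.67 and 0.79 in MyD88-null apoA-I cells against -0.17, 1.23 and -0.52 in MyD88-null controls. It had 0.84, 1.84 and 1.44 in C57BL/6 apoA-I cells against -0.52, 0.99 and 0.062 in C57BL/6 controls. Its difference was 0.67 in MyD88-null cells (SE 0.57, adjusted p = 0.797, and 0.152 with the block) and 1.20 in C57BL/6 cells (SE 0.57, adjusted p = 0.74, and 0.0415 with the block), with experiment 2 the highest in each group. Tfpi, the tissue factor pathway inhibitor, differed by -0.48 in MyD88-null cells (SE 0.23, adjusted p = 0.62) and by 0.035 in C57BL/6 cells (SE 0.23). In controls Tfpi lay higher in MyD88-null cells by 0.52 (limma unadjusted p = 0.0479, adjusted p = 0.9998). Its arrays did not overlap in the MyD88-null response or between genotypes in controls, where 11.6% and 10.3% of genes showed this. Tfpi has 5 probes and Plat 3, and the values are those of the probe with the highest mean. F5, the cofactor of factor X, differed by 0.36 (SE 0.282) in MyD88-null cells and 0.012 (SE 0.282) in C57BL/6 cells, and F2r, a thrombin receptor, by -0.060 (SE 0.878) in MyD88-null cells and -0.18 (SE 0.878) in C57BL/6 cells. F2rl1, another protease-activated receptor, was well above background on 0 of 12 arrays, Serpine2, an inhibitor of thrombin and urokinase, on 1 and Tfpi2, a serine protease inhibitor, on 6, so none of these was tested.

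**Figure D5:**
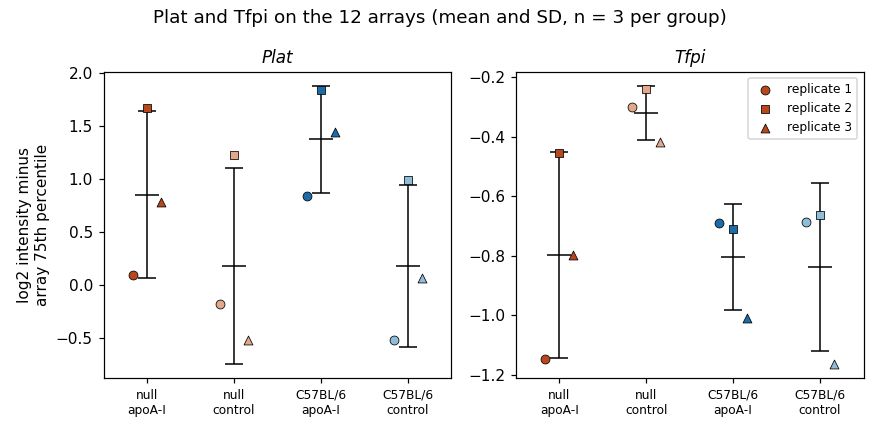
Level (vertical axis, log2 intensity relative to the array's upper quartile) of Plat and Tfpi on the 12 arrays by group, with the mean and SD of 3 arrays; symbols are replicates. Plat is highest on the array of experiment 2 in each of the 4 groups, at 1.67 in MyD88-null apoA-I cells, and the vertical axes differ between panels.

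For each member called without the block, the 3 genes whose level, centred on its own mean, stayed closest over the 12 arrays were named as most alike, by the root mean square difference. For F3, itself spread by 1.20 (root mean square), they were Cd247, a chain of the T cell receptor complex (0.48), BB657751 (0.50) and Plek, pleckstrin (0.52). All 4 T cell markers on the array, Cd3e, Cd3d, Cd3g and Lck, were above background on all 12 arrays, and none was called. Their summed level was 2.34, 1.91 and 0.97 in MyD88-null apoA-I cells against 1.35, 0.96 and 0.60 in MyD88-null controls, higher in each experiment. It was 1.26, 1.67 and 0.76 in C57BL/6 apoA-I cells against 1.30, 1.17 and 0.65 in C57BL/6 controls, and the part of T cell RNA in these values was not tested. For F10, spread by 0.83, they were Tnfrsf1b, a receptor of tumour necrosis factor (0.16), Ifrd1 (0.21) and Ugcg, glucosylceramide synthase (0.23). For Plau, spread by 0.74, they were Casp4, an inflammatory caspase (0.23), Btg1 (0.27) and Birc3, an inhibitor of apoptosis (0.29). Closeness here is over arrays that share treatments and experiments, and it is a description.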

How the data were processed

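Peritoneal macrophage RNA was hybridised to 12 one-colour Agilent arrays. The deposited scanner files hold processed intensity per spot, made by Agilent's Feature Extraction software, whose version the submitters' processing notes give as 9.5 and the headers as 9.5.3.1 or 9.5.1.1, with probe positions on mm7. The deposited value table, used as an alternative, behaves as log10 of the same intensity (correlation 0.993 to 0.9997 with each array), with medians of 1.82 to 1.87; any centring by the authors is not stated.

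Control spots were left out, spots of a probe averaged, intensities divided by each array's 75th percentile and taken to log2. Of 41174 probes, 24346 passed the filter, being well above background throughout 1 group or more, and the one with the highest mean stood for each of 16739 genes. Gene names were updated through RefSeq where an accession or symbol matched, and 8437 probes kept the name in the file. Group means were fitted with limma 3.58.1 in R 4.3.3 (8 residual and 2.16 prior degrees of freedom), tested on simulated data. The replicate number marks the experiment in the series design. Residuals of same-numbered arrays correlated at 0.30 to 0.86 in all 18 pairs, so the fit with that block is given beside results it changes. Among the 36 pairs of differently numbered arrays the correlation ran from -0.81 to 0.55, with 6 pairs over 0.1. Experiment 3 had a scan day and slides to itself, so its correlations cannot separate the experiment from scan day and slide. In experiments 1 and 2, MyD88-null apoA-I replicate 1 and MyD88-null control replicate 2 shared slide 3 and a scan day and correlated at -0.090. The former correlated at 0.37 to 0.72 with its same-numbered arrays, which lay on another slide and day. The latter did so at 0.30 to 0.51. Differently numbered arrays of different groups that shared scan day 1 correlated at 0.043 to 0.55. The arrays lay on 5 slides scanned on 3 days. Alternatives changed background correction, scaling, filter, probe choice, blocks, the arrays of conflicting description and each array in turn. The fits that left out arrays had no block.

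All 9 members are named. Of the other pathway genes, those called and a fixed set are named, except 1 gene not reported here, and for each called member the 3 genes most alike. The members and lists were chosen with earlier results of these data known.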

Additional observations from a re-analysis of the deposited data

How the results depend on the processing

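Over 1125 values of the 9 members under alternatives, 1090 kept their side of the threshold, 20 called values were no longer called and 15 became called. Of the called values 0 changed sign, and 59 values called in neither fit did, none larger than 1.37. Most of the 1125 values began as not called, since the main fit called 2 members in each response and 0 in the other comparisons. The 20 lost calls therefore came from a small part of the 1125, and the 1090 do not measure how firmly a call held. Members called in the C57BL/6 response numbered 2, with 5 under the experiment as a replicate block (the paired fit), 4 with the slide as a random block, 4 with the scan day as a block, 1 with median scaling, 1 with the slide as a fixed block (added after seeing the data), 0 without both arrays of conflicting description, 0 with the treatment taken from the descriptions, and 1 to 2 when each array was left out in turn. In the MyD88-null response they numbered 2, with 4 under the replicate block, 1 with normexp, 0 with median scaling, 1 with no filter, 1 with the slide as a fixed block, 1 without both arrays of conflicting description, 0 with the treatment from the descriptions, and 1 to 3 with each array left out. In controls the genotype comparison called 0 members, and 2 under the replicate block, which changed no call with apoA-I or between responses. Pathway genes called in the C57BL/6 response were 0, with 2 under the replicate block, 1 each with normexp, the slide as a random block, the scan day and the slide as a fixed block, and 0 to 1 with each array left out. In the MyD88-null response they were 0, with 1 each under the replicate block, normexp, probes above background on all arrays, the slide as a random block, the scan day and the slide as a fixed block, and 0 to 1 with each array left out. Why these counts moved was not tested. Every member probe was well above background on all arrays; normexp still moved F3 in C57BL/6 cells to 2.59, against 3.00, and F10 in MyD88-null cells to an adjusted p of 0.0544.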
